A study of Mus musculus with 6 samples.

Results

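The 38 genes described here encode 19 lysosomal hydrolases, 10 lysosomal membrane and accessory proteins, 8 subunits of the vacuolar proton pump and the transcription factor TFEB. They were chosen by name from a fixed list, made with earlier results of these data known, and matched to the gene symbols of the deposited tables. All 38 were found among the 24848 genes listed. Transcripts were measured by RNA-seq in brains of E14.5 mouse embryos, in 3 wild type (WT) animals and 3 animals labelled E4f1 KO, 1 library per brain. The series asks how the zinc finger protein E4F1, a regulator of transcription, affects pyruvate metabolism, the Elongator complex and translation as the brain develops. The labels give neither the E4f1 allele, the strain, the sex or litter of the embryos, nor the cells in which the gene was deleted. A count in brain tissue cannot tell fewer cells of a type from less RNA per cell.

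Lysosomes are acidic organelles that take apart proteins, glycans and lipids delivered by endocytosis, phagocytosis and autophagy. The V-ATPase pumps protons into their lumen by coupling ATP hydrolysis in its cytosolic V1 sector to proton transfer through its membrane V0 sector, and most of the hydrolases need this low pH to work. TFEB and its relatives bind E-box sequences with the core CACGTG (the CLEAR element) upstream of many lysosomal genes. Neurons also use the V-ATPase to load synaptic vesicles, and phagocytes such as microglia are rich in cathepsins and in the glycoprotein CD68.

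Promoters of the members held the TFEB-type element at a higher share than tested genes as a whole, and those with it had fold changes of either sign. RefSeq promoters (GRCm38.p6, 250 bases before to 50 after a start site) were found for 33 of the 38 genes and searched on both strands. The core CACGTG was present in 13 of these 33 (39.4%), against 11.2% of the 12239 tested genes with a RefSeq promoter. The longer GTCACGTG, which contains the core, was present in 10 (30.3%, against 4.38%), and TCACGTGA, which also contains it and can overlap GTCACGTG, in 6 (18.2%, against 1.97%). TGACGT, the core of ATF, CREB and E4F1 type sites, was present in 6 (18.2%, against 12.4%), among them Cd63 and Cd68. The 10 members with GTCACGTG comprised 6 of 17 hydrolases, 2 of 9 membrane and accessory genes and 2 of 6 pump subunits. Of these 10, 6 had a positive and 4 a negative log2 fold change of KO against WT, with a median of 0.07, and the members without it had a median of 0.32. A match describes the letters only and shows no binding. The windows below, 5′ to 3′ on the strand of the gene, set 4 hydrolases with positive fold changes (Ctsd, Glb1, Naglu, Sgsh) beside Lamp1, which was near 0, and 3 genes with negative ones (Mcoln1, Atp6v0b, Atp6v0d1). Ctsa (log2 fold change -0.05) and Gla (0.13) also held GTCACGTG and are not printed. Capitals mark GTCACGTG or its reverse complement, and other E-boxes are left in lower case.
Ctsd (chr7:142387902-142387941, minus strand): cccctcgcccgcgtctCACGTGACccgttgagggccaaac
Glb1 (chr9:114401012-114401051, plus strand): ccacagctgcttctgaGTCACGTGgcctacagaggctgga
Naglu (chr11:101070003-101070042, plus strand): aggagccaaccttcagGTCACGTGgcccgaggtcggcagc
Sgsh (chr11:119355516-119355555, minus strand): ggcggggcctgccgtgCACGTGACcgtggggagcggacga
Lamp1 (chr8:13159117-13159156, plus strand): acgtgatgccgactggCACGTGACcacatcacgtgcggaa
Mcoln1 (chr8:3500458-3500497, plus strand): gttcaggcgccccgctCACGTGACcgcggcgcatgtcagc
Atp6v0b (chr4:117887344-117887383, minus strand): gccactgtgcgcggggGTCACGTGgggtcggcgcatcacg
Atp6v0d1 (chr8:105566046-105566085, minus strand): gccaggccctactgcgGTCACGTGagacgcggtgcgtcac

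The RefSeq windows of the 2 members that passed the test of KO against WT, Ctsl and Atp6v0c, held neither GTCACGTG nor TCACGTGA. That of Ctsl has a single CACGTG, in capitals. It lies within the annotated gene, whose 5′ end is at 64370772, so bases upstream of that end were not searched. The window shown for Atp6v0c is number 2 of its 3 RefSeq windows. It has no CACGTG or TGACGT, nor do the other windows of that gene.
Ctsl (chr13:64370471-64370770, minus strand): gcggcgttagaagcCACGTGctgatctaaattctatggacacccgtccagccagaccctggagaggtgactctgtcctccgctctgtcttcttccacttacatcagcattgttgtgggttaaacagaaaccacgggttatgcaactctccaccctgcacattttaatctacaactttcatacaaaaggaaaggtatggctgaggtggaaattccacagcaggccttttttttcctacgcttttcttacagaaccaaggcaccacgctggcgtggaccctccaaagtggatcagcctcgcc
Atp6v0c (chr17:24169401-24169700, minus strand): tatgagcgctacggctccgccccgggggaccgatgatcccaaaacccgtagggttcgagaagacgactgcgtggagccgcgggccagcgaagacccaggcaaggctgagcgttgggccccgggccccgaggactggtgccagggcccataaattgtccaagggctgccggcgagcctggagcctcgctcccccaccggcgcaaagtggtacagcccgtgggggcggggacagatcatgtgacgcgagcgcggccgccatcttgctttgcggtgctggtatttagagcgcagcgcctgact

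The libraries held between 42113465 and 74064707 expected counts, and 15848 genes were expressed highly enough to be tested, all 38 members among them. Counts of single members ran from 93 for Tfeb to 29268 for Psap. E4f1 stood at 21.3 ± 0.485 CPM (counts per 1000000 after TMM scaling, mean ± SD, n = 3) in WT and 7.01 ± 0.103 CPM in KO (log2 fold change -1.60 ± 0.08, SE; edgeR adjusted p = 0.00142). All 8 neuron markers were detected in every library. WT 2 and KO 3 held the most fibroblast and meningeal RNA of their groups, with 7 such markers summing to 2647 CPM and 5231 CPM and to between 455 and 1078 CPM in the other libraries. The midbrain genes En1, En2 and Pax5 summed to between 3.07 and 69.9 CPM in WT and between 0.266 and 1.61 CPM in KO. The p-values set the difference between KO and WT against the spread among brains of the same group. The labels do not state litters or batches, from which these p-values cannot separate the genotype.

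Hydrolases mostly had higher mean levels in KO brains and pump subunits lower ones. Of the 19 hydrolases, 17 had a positive log2 fold change, with a median of 0.35 (18 positive with scaling by library totals and 16 by limma on TPM). All 8 pump subunits had a negative one, with a median of -0.17 (7 with upper-quartile factors, 6 with library totals and 5 with a midbrain score as covariate). Without WT 2 the pump median was -0.10, with 7 of 8 negative (also 7 without KO 3), and without each other library it lay between -0.23 and -0.13. The median of all tested genes was -7.67e-04, and 49.9% of them had a positive value. By edgeR's adjusted p below 0.05, 1 of the 38 members was higher in KO (Ctsl) and 1 was lower (Atp6v0c), against 0.511% and 0.492% of all tested genes. At an unadjusted p below 0.05, 14 members were higher and 4 lower, against 10.3% and 9.31% of tested genes. The 3 KO values all exceeded the 3 WT values in 15 members, which compares with 14.6% of tested genes, and all lay below them in 4, which compares with 13%. DESeq2 called 10 members higher (4.82% of genes) and 3 lower (4.06%). The 19 hydrolases together made up 664, 770 and 666 CPM in WT 1 to WT 3 and 838, 917 and 939 CPM in KO 1 to KO 3. The 8 pump subunits made up 1016, 1218 and 994 CPM in WT and 930, 1040 and 853 CPM in KO. The hydrolase sums of the groups did not overlap, while in the pump sums KO 2 lay above WT 1 and WT 3. Within each library the ratio of the hydrolase sum to the pump sum was 0.654, 0.632 and 0.670 in WT and 0.902, 0.881 and 1.10 in KO, with no overlap.

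**Figure D1:**
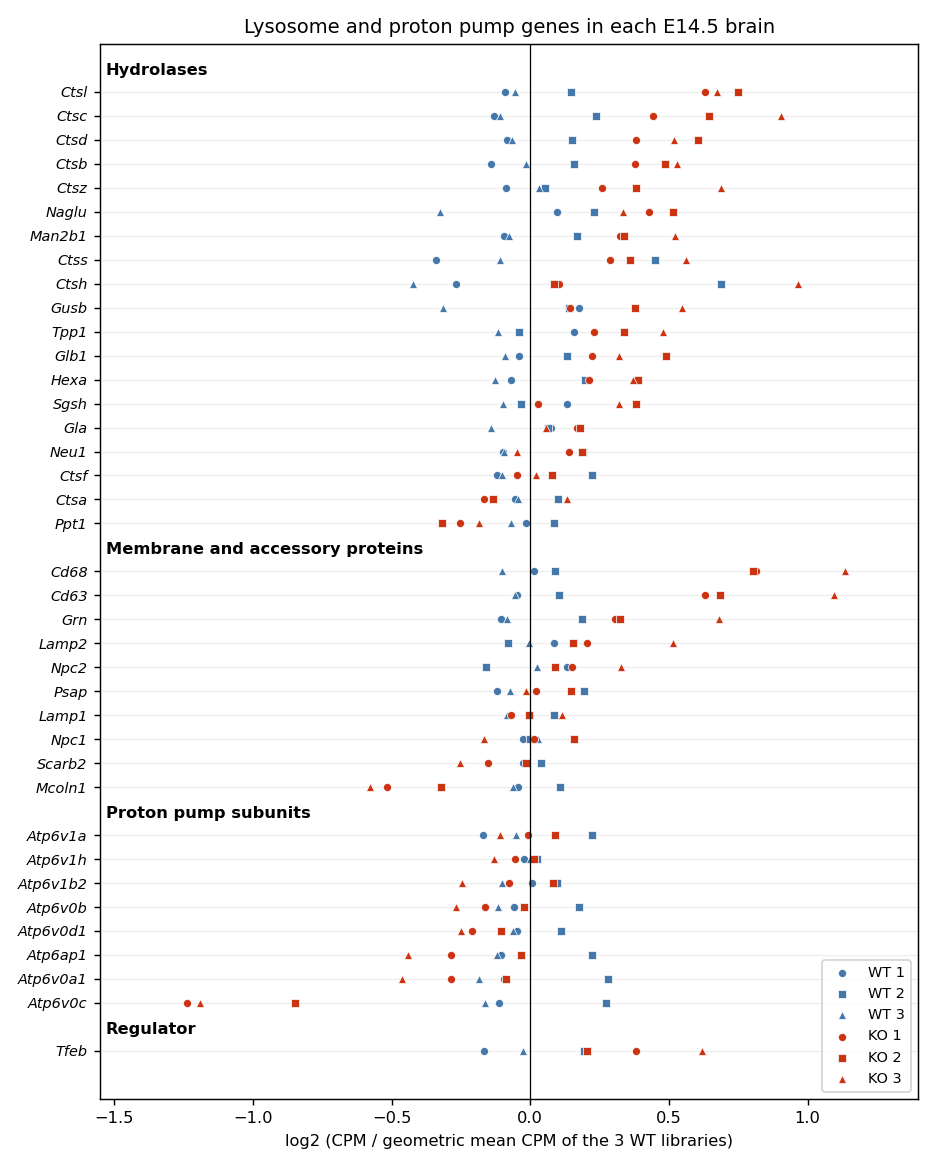
Level of each of the 38 members (rows, by role) in each brain, as the log2 ratio of its CPM to the geometric mean of the 3 WT libraries, with 1 symbol per library. Most hydrolases lie to the right in KO (Ctsl at the top, log2 fold change 0.68), and Atp6v0c stands apart from the other pump subunits at -1.09.

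Cathepsins, the lysosomal proteases, included the hydrolases with the largest differences. Ctsl, the cysteine protease cathepsin L (chromosome 13, 64361890 to 64370772, GRCm38), measured 45.4, 53.4 and 46.5 CPM in the WT brains (1 to 3) and 74.8, 81.1 and 77.1 CPM in the KO brains. Every KO brain was above every WT brain, and Ctsl rose 1.60-fold (log2 fold change 0.68 ± 0.08, SE, n = 3 per group; edgeR adjusted p = 0.0236). Its call held in 1 of the 6 fits that left out a library, without WT 2 (adjusted p = 0.0212), and was lost without WT 1, WT 3, KO 1, KO 2 and KO 3 (0.0767, 0.127, 0.140, 0.0821 and 0.0795), with log2 fold changes between 0.64 and 0.76. It was also lost in WT 1, WT 2, KO 1 and KO 2 alone (0.310) and with the midbrain score as covariate (0.952). No gene was called in either of these fits, and E4f1 itself had adjusted p of 0.0721 and 0.219. The GENCODE gene Gm47123 on the opposite strand overlaps 28.2% of the exon bases of Ctsl. The strand setting of the counting is not given in the sources used here.

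The aspartic protease cathepsin D and the cysteine protease cathepsin B were the most abundant hydrolases per transcript length, at 229 and 115 TPM over all brains (transcripts per 1000000). Ctsd was at 124, 146 and 125 CPM in WT and at 171, 200 and 188 CPM in KO. Ctsb was at 159, 195 and 173 CPM in WT and at 228, 246 and 253 CPM in KO. Neither gene's groups overlapped, and neither passed edgeR's test: the log2 fold change was 0.50 ± 0.09 for Ctsd (adjusted p = 0.0695; DESeq2 adjusted p = 1.03e-04) and 0.46 ± 0.09 for Ctsb (0.0835; DESeq2 4.86e-04). Of the exon bases of Ctsd, 31.5% are shared with the GENCODE gene Gm49369 on the same strand, the largest overlap of any member, and of those of Ctsb, 16.3% with Fdft1 on the opposite strand.

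Ctsc, which activates serine proteases of immune cells, and Ctsz, a carboxypeptidase, had wider spreads. Ctsc was at 7.37, 9.51 and 7.49 CPM in WT and at 11.0, 12.6 and 15.1 CPM in KO. Ctsz was at 27.6, 30.4 and 30.0 CPM in WT and at 35.1, 38.2 and 47.3 CPM in KO. KO 3 was the highest library for both, and the groups did not overlap. Their log2 fold changes were 0.67 ± 0.17 and 0.45 ± 0.12 (edgeR adjusted p = 0.127 and 0.139; DESeq2 adjusted p = 0.00606 and 0.0230). Ctss, the cathepsin of microglia and other antigen-presenting cells, had 0.37 ± 0.23, and WT 2 at 7.91 CPM lay above KO 1 and KO 2 at 7.05 and 7.43 CPM.

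Among enzymes that break down glycans, fold changes were smaller than those of Ctsl, Ctsc and Ctsd, and none passed edgeR's test. Man2b1, the lysosomal alpha-mannosidase, was at 22.0, 26.4 and 22.2 CPM in WT and at 29.4, 29.6 and 33.6 CPM in KO. Glb1, the beta-galactosidase whose loss causes GM1 gangliosidosis, was at 21.7, 24.4 and 20.9 CPM in WT and at 26.0, 31.3 and 27.9 CPM in KO. The groups did not overlap in either gene, and the log2 fold changes were 0.39 ± 0.10 and 0.35 ± 0.10 (edgeR adjusted p = 0.135 and 0.158; DESeq2 adjusted p = 0.0164 and 0.0346). Hexa, the alpha subunit of hexosaminidase A that is lost in Tay-Sachs disease, was at 29.2, 35.1 and 28.0 CPM in WT and at 35.5, 40.1 and 39.6 CPM in KO. Naglu, which removes N-acetylglucosamine from heparan sulfate, was at 8.53, 9.36 and 6.36 CPM in WT and at 10.7, 11.4 and 10.1 CPM in KO. Their log2 fold changes were 0.32 ± 0.11 and 0.41 ± 0.17 (edgeR adjusted p = 0.191 and 0.247), again with no overlap, and without WT 3 Naglu had 0.26.

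The lysosomal peptidase Tpp1 and the thioesterase Ppt1, both mutated in forms of neuronal ceroid lipofuscinosis, had fold changes of opposite sign. Tpp1 was at 34.6, 30.2 and 28.6 CPM in WT and at 36.4, 39.2 and 43.2 CPM in KO (log2 fold change 0.35 ± 0.10, edgeR adjusted p = 0.159). Ppt1, which removes palmitate from proteins, was at 55.2, 59.2 and 53.2 CPM in WT and at 46.8, 44.8 and 49.1 CPM in KO (-0.25 ± 0.07, edgeR adjusted p = 0.144; DESeq2 adjusted p = 0.0373). Every KO brain was above every WT brain in Tpp1 and below in Ppt1, and neither passed edgeR's test. Ppt1 kept its negative sign in all 20 alternative fits.

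The other 8 hydrolases had overlapping groups and log2 fold changes between -0.05 (Ctsa, the protective protein of beta-galactosidase and neuraminidase) and 0.37 (Ctss). Neu1, the neuraminidase that works in a complex with Ctsa and Glb1, had 0.09 ± 0.12. Gusb, the beta-glucuronidase, and Sgsh, a sulfamidase, had 0.35 ± 0.17 and 0.25 ± 0.14. Gla, the alpha-galactosidase, and the cathepsin genes Ctsf and Ctsh had 0.13 ± 0.12, 0.01 ± 0.12 and 0.36 ± 0.39. Ctsh ranged from 3.46 to 7.47 CPM in WT and from 4.92 to 9.05 CPM in KO, with WT 2 and KO 3 highest.

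**Figure D2:**
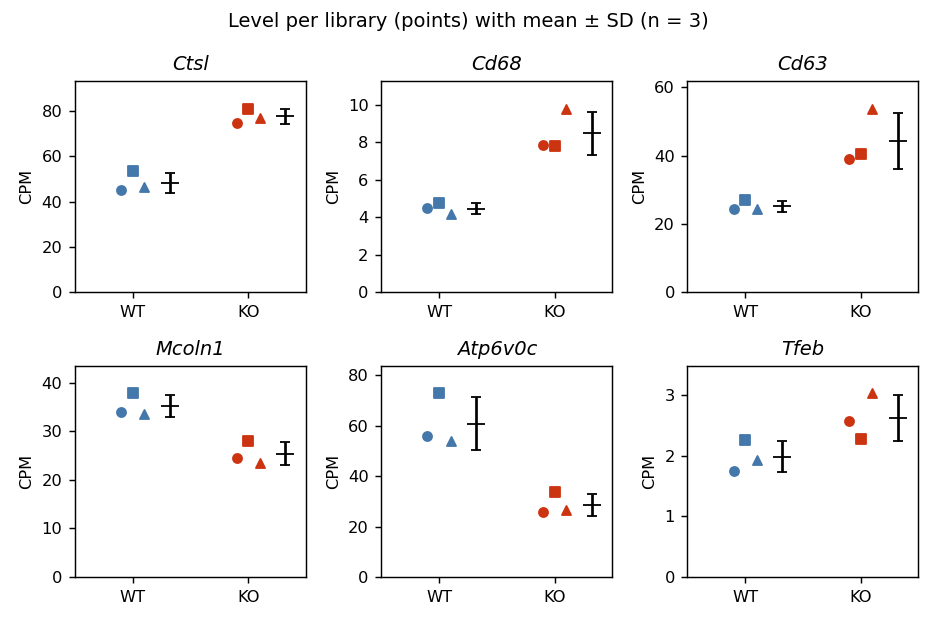
CPM of 6 members in each WT and KO library (points, 1 symbol per replicate number) with the group mean ± SD (n = 3), on axes that start at 0. The groups are separate in all 6 genes, by the least in Tfeb, where WT 2 at 2.26 CPM lies just under KO 2 at 2.28 CPM.

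Among lysosomal membrane and accessory proteins, Cd68 and Cd63 had the largest fold changes and Lamp1 and Psap were close to 0. None of the 10 passed edgeR's test. At an unadjusted p below 0.05, 4 were higher and 1 lower, against 10.3% and 9.31% of tested genes. DESeq2 called 3 higher and 1 lower, against 4.82% and 4.06%. The median was 0.12, with 8 log2 fold changes above 0 (6 by limma on TPM). Cd68, a heavily glycosylated protein of phagocyte lysosomes, was at 4.50, 4.74 and 4.15 CPM in WT and at 7.83, 7.78 and 9.80 CPM in KO. Cd63, a tetraspanin of late endosomes and exosomes, was at 24.3, 27.0 and 24.2 CPM in WT and at 38.9, 40.4 and 53.7 CPM in KO. KO 3 was the highest library in both, with no overlap between groups. The log2 fold changes were 0.92 ± 0.15 for Cd68 (edgeR adjusted p = 0.0536) and 0.82 ± 0.14 for Cd63 (0.0611), and without KO 3 they were 0.80 and 0.65. DESeq2 called both higher (adjusted p = 1.09e-06 and 1.67e-05), as did limma on log2(TPM + 1) (0.0280 and 0.0416). Of 20 alternative fits, 5 called Cd68 and 4 called Cd63. No edgeR fit that left out 1 library called either gene (adjusted p up to 0.245 and 0.210).

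Mcoln1, the calcium channel TRPML1 of the lysosomal membrane, had the lowest fold change of the 10. It was at 34.1, 37.8 and 33.6 CPM in WT and at 24.6, 28.1 and 23.5 CPM in KO. The groups did not overlap (log2 fold change -0.47 ± 0.10, edgeR adjusted p = 0.0857; DESeq2 adjusted p = 9.83e-04), and the sign stayed negative in all 20 alternative fits, with values from -0.55 to -0.35. Its promoter carries GTCACGTG in both orientations, the second of which is printed above.

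Grn, whose product progranulin is cut into granulins in the lysosome, was at 43.7, 53.4 and 44.3 CPM in WT and at 58.1, 58.8 and 75.2 CPM in KO (log2 fold change 0.44 ± 0.13, edgeR adjusted p = 0.165; DESeq2 adjusted p = 0.0396). Lamp2, a membrane glycoprotein with a part in chaperone-mediated autophagy, was at 59.6, 53.2 and 56.0 CPM in WT and at 64.7, 62.6 and 80.4 CPM in KO (0.30 ± 0.11, adjusted p = 0.220). In both genes the groups did not overlap and KO 3 was highest, and without KO 3 Lamp2 had 0.17. Lamp1, its close relative and a standard lysosomal marker, was at 198, 210 and 187 CPM in WT and at 189, 198 and 215 CPM in KO (0.01 ± 0.08). Psap, the precursor of the saposins that activate sphingolipid hydrolases, was the most abundant member per transcript length, at 424 TPM. It was at 371, 462 and 384 CPM in WT and at 409, 448 and 400 CPM in KO (0.05 ± 0.10). The groups overlapped in Lamp1 and Psap, as they did in Npc1 and Npc2, the membrane and soluble proteins of cholesterol export (0.01 ± 0.09 and 0.19 ± 0.10), and in Scarb2, the receptor that carries glucocerebrosidase to lysosomes (-0.14 ± 0.08).

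The proton pump differed chiefly in 1 subunit. Atp6v0c encodes the proteolipid that forms the rotating ring of the V0 sector (chromosome 17, 24163865 to 24169678). It was at 55.8, 72.9 and 53.9 CPM in WT and at 25.6, 33.5 and 26.4 CPM in KO. The groups were far apart, and Atp6v0c fell to 0.469 of its WT level (log2 fold change -1.09 ± 0.16, SE, n = 3 per group; edgeR adjusted p = 0.0456; DESeq2 adjusted p = 3.55e-08). Per transcript length it was at 151, 197 and 145 TPM in WT and at 68.7, 89.7 and 69.3 TPM in KO. Its share of the CPM of the 8 subunits was between 5.42% and 5.99% in WT and between 2.75% and 3.22% in KO. The edgeR call was lost without WT 1, WT 2, WT 3, KO 1, KO 2 and KO 3 in turn (adjusted p = 0.0924, 0.0757, 0.120, 0.252, 0.0588 and 0.146), with log2 fold changes from -1.23 to -0.94. It was also lost in WT 1, WT 2, KO 1 and KO 2 alone (0.310) and with the midbrain score as covariate (0.981, log2 fold change -0.79). Neither of these last fits called any gene. The expected counts of Atp6v0c were whole numbers in every library. Atp6v0c lies 274 kb from E4f1 on the same chromosome. Of 76 other tested genes within 1000000 bases of E4f1, 4 (5.26%) were called, Atp6v0c and Rnps1 lower and Dnase1l2 and Cldn6 higher, against the 0.492% lower and 0.511% higher of all tested genes. The median log2 fold change was -0.07. Whether the position near the targeted locus has a part in the difference was not tested.

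The other 7 subunits had log2 fold changes between -0.28 and -0.02, and none passed the test. Atp6v0d1, the subunit that links the ring to the central stalk, was at 113, 126 and 112 CPM in WT and at 101, 108 and 98.0 CPM in KO, with no overlap (-0.19 ± 0.07, edgeR adjusted p = 0.241). Atp6v1b2, which forms the nucleotide-binding head together with Atp6v1a, was at 202, 215 and 187 CPM in WT and at 190, 213 and 169 CPM in KO (-0.08 ± 0.10). Atp6v1a, the catalytic subunit, was at 146, 192 and 159 CPM in WT and at 163, 175 and 152 CPM in KO (-0.02 ± 0.12). In both genes the groups overlapped, and the sign of Atp6v1a turned positive under upper-quartile scaling (0.01) and scaling by library totals (0.05), as did that of Atp6v1h under library totals (0.01). The regulatory subunit Atp6v1h had -0.06 ± 0.06, the proteolipid Atp6v0b -0.15 ± 0.10, the accessory subunit Atp6ap1 -0.25 ± 0.14 and Atp6v0a1, the neuronal form of the proton channel subunit, -0.28 ± 0.15. WT 2 was the highest and KO 3 the lowest library in each of the last 3. In the comparison of WT 1 and WT 3 with KO 1 and KO 2 the median of the 8 subunits was -0.04, and Atp6v0c had -0.91 ± 0.14 (edgeR adjusted p = 0.102).

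Per transcript length the 8 subunits lay within a narrow range, from 104 TPM for Atp6v1a to 196 TPM for Atp6v0d1 over all brains. In WT the lowest means were those of Atp6v1a at 105 ± 15.3 TPM and Atp6v1h at 115 ± 2.19 TPM. Atp6v0a1 at 163 ± 29.5 TPM, Atp6v0c and Atp6ap1 at 180 ± 25.3 TPM came next, with spreads that overlap, and Atp6v1b2, Atp6v0b and Atp6v0d1 had the highest means (201, 206 and 210 TPM), with libraries from 186 to 231 TPM. In KO, Atp6v0c was the lowest of the 8 at a mean of 75.9 TPM, and the next was Atp6v1a at 102 ± 8.08 TPM.

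Tfeb, the regulator, was expressed at a low level, 2.73 TPM over all brains. It was at 1.76, 2.26 and 1.94 CPM in WT and at 2.57, 2.28 and 3.04 CPM in KO. The groups did not overlap, although WT 2 and KO 2 were nearly equal, and the difference did not pass the test (log2 fold change 0.41 ± 0.20, edgeR adjusted p = 0.322; DESeq2 adjusted p = 0.273). TFEB is controlled largely by phosphorylation and entry into the nucleus, which a transcript level does not show.

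Further genes of the pathway were listed apart from the members. Most hydrolases among them had positive fold changes, and the pump subunits had values of both signs. These lists, like the members, were chosen with earlier results of these data known and are no independent check. Among 27 other hydrolases and their cofactors, 20 had positive log2 fold changes (median 0.22) and none was called by edgeR. At an unadjusted p below 0.05, 7 were higher and 2 lower, and DESeq2 called 5 higher and 2 lower. For this list and those below, the shares of all tested genes were 10.3% and 9.31% by that p, and 4.82% and 4.06% by DESeq2. The asparagine endopeptidase Lgmn had 0.57 ± 0.11 (edgeR adjusted p = 0.0851). Lgmn was called without WT 2 (0.0470) and in no other fit that left out 1 library (up to 0.291). Among 21 other membrane proteins, none was called by edgeR, with 4 higher and 4 lower at an unadjusted p below 0.05 (DESeq2 called 3 higher and 1 lower). Gpnmb, a glycoprotein of phagocytes, was at 0.495 ± 0.303 CPM in WT and 5.51 ± 0.665 CPM in KO (log2 fold change 3.51 ± 0.54, edgeR adjusted p = 0.0516). Gpnmb was called by edgeR without WT 1 (0.0156) and in no other fit that left out 1 library (up to 0.223). Clcn7, the chloride-proton exchanger that works beside the pump, had -0.36 ± 0.08 (adjusted p = 0.104). Like Atp6v0c, it lies within 1000000 bases of E4f1, and the part of this position was not tested. Of 17 other pump subunits 13 could be tested, with 6 positive and 7 negative fold changes and a median of -1.03e-03, and neither edgeR nor DESeq2 called any. At an unadjusted p below 0.05, Tcirg1, the pump's a3 subunit typical of osteoclasts and macrophages, was higher (0.45 ± 0.17, adjusted p = 0.216) and Atp6v0a2, a subunit of the Golgi form, lower (-0.20 ± 0.08, adjusted p = 0.222).

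**Figure D3:**
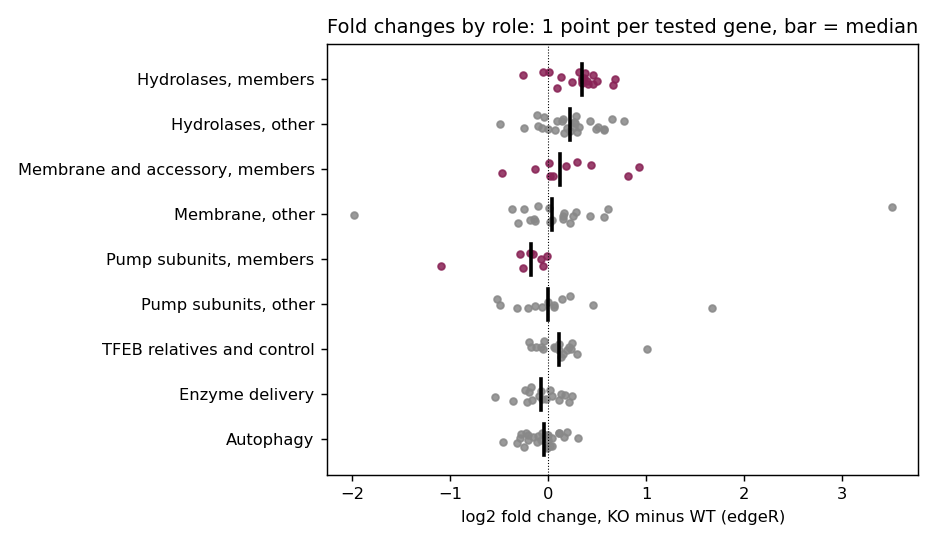
edgeR log2 fold changes of KO against WT for members (purple) and further genes of the pathway (grey), 1 point per tested gene, with the median of each list as a bar. The medians are 0.35 and 0.22 for the 2 lists of hydrolases and -0.17 and -1.03e-03 for the 2 lists of pump subunits.

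Genes that act on TFEB, deliver enzymes to lysosomes or form autophagosomes held 1 call. Shares of all tested genes were 10.3% higher and 9.31% lower at an unadjusted p below 0.05, and 4.82% and 4.06% by DESeq2. Among 18 relatives of TFEB and components of its control at the lysosome, none was called by edgeR, 4 were higher and 2 lower at an unadjusted p below 0.05, and DESeq2 called 1, Fnip1, a partner of folliculin (0.29 ± 0.07, edgeR adjusted p = 0.117). Mtor, the kinase that phosphorylates TFEB, had -0.17 ± 0.06 (adjusted p = 0.206). Of 18 delivery genes, Vps33a fell, a subunit of the HOPS complex that tethers vesicles to lysosomes. At an unadjusted p below 0.05, 2 delivery genes were higher and 5 lower, and DESeq2 called 1 higher, Vps16 (adjusted p = 0.0459), and 2 lower, Vps33a and Vps11 (0.0453 for Vps11). Vps33a was at 98.6, 104 and 96.3 CPM in WT and at 66.9, 71.2 and 66.8 CPM in KO, without overlap (log2 fold change -0.54 ± 0.06, edgeR adjusted p = 0.0184). Its adjusted p was 0.0642, 0.0527, 0.0810, 0.157, 0.0543 and 0.0765 without WT 1, WT 2, WT 3, KO 1, KO 2 and KO 3. Among 26 autophagy genes, none was called by edgeR, 1 was higher and 8 were lower at an unadjusted p below 0.05, and DESeq2 called 1 higher and 6 lower. Ulk2, a kinase that starts autophagy, had -0.46 ± 0.08 (edgeR adjusted p = 0.0619), and Map1lc3b, the LC3B protein of autophagosome membranes, -0.32 ± 0.06 (0.0631).

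Markers of several cell types differed between the same libraries as the members. Of 16 microglia markers, all had positive log2 fold changes (median 0.86), and Cx3cr1 and Fcrls were called higher. At an unadjusted p below 0.05, 10 of the 16 were higher, and DESeq2 called 9. Shares of all tested genes were 10.3% higher and 9.31% lower by that p, and 4.82% and 4.06% by DESeq2. Cx3cr1 and Fcrls had edgeR adjusted p of 0.0395 and 0.0369. No fit that left out 1 of the 6 libraries kept either call (between 0.0703 and 0.160 and between 0.0694 and 0.163). Summed over the list, the markers reached between 182 and 183 CPM in WT and between 222 and 320 CPM in KO, and without Sall1, which neural progenitors also express, between 69.5 and 113 CPM and between 126 and 185 CPM. Of 8 genes of phagocytic microglia, 7 were tested, 5 were higher at an unadjusted p below 0.05 and 4 by DESeq2, and 3 rose by edgeR's adjusted p, Clec7a, Itgax and Ccl6 (edgeR adjusted p = 0.0129, 0.0221 and 0.0495). Clec7a stayed called without WT 1, WT 2 or KO 3, Itgax without KO 3 and Ccl6 without WT 2, and the other fits that left out 1 library lost them (up to 0.0960, 0.133 and 0.255). The 8 genes had sums from 28.5 to 66.2 CPM in WT and from 81.3 to 162 CPM in KO, and Cst7 was at 0 in WT 1 and WT 2. The 8 markers of border macrophages overlapped between groups (29.5 to 66.3 and 31.9 to 93.0 CPM, Cd209f at 0 in WT 2), and those of endothelium did not (218 to 261 and 285 to 393 CPM), with none called by edgeR in either list (0 and 5 at an unadjusted p below 0.05, 0 and 3 by DESeq2). The 8 neuron markers summed to between 6465 and 7615 CPM in WT and between 5095 and 5701 CPM in KO, 6 of them with negative fold changes (median -0.43) and none called by edgeR (4 lower at an unadjusted p below 0.05, 3 by DESeq2). Lists of the choroid plexus, erythroid cells and radial glia, from 194 to 414, 300 to 964 and 1286 to 1787 CPM over all libraries, overlapped between groups. edgeR called none of their genes, nor of the fibroblast and midbrain lists, whereas 2 erythroid genes were higher, 1 radial glia gene lower and all 3 midbrain genes lower both by DESeq2 and by the unadjusted edgeR p. The part of these cell type markers in the differences of the cathepsins, Cd68, Cd63 and the pump subunits was not tested.

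**Figure D4:**
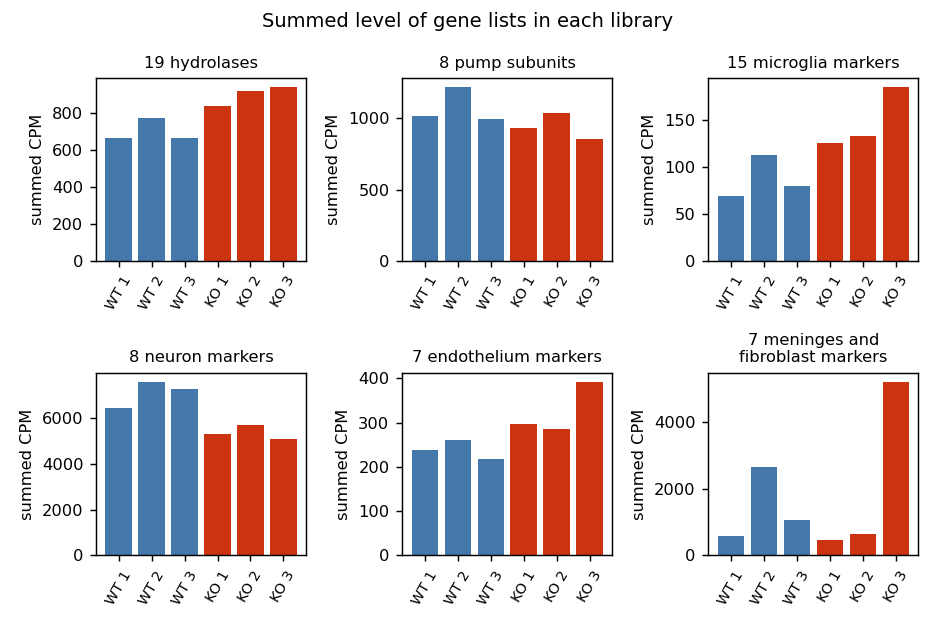
Summed CPM of hydrolases, pump subunits and 4 lists of cell type markers in each library (bars from 0). Hydrolases, microglia markers (without Sall1) and endothelium markers are higher and neuron markers lower in every KO library than in every WT library, while fibroblast markers peak in WT 2 and KO 3.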

How the data were processed

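Per the labels' protocols, Trizol RNA of frozen brains was made into stranded mRNA libraries (KAPA) for paired-end reads. RSEM (version 1.2.28) and STAR (version 2.5.3a) are listed in the submitters' processing notes beside FastQC, Trimmomatic and the builds GRCm38 and mm10, with no settings. The file headers show that the authors deposited expected counts with TPM and FPKM for each gene, and FPKM was left unused. An expected count shares out reads that fit several transcripts. Of the members, only Glb1 had counts more than 0.005 from a whole number, and 12 share exon bases with another GENCODE gene.

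Expected counts deposited by the authors were rounded and tested with edgeR (version 4.0.16; filterByExpr, TMM, robust quasi-likelihood F test, two-sided, Benjamini and Hochberg adjustment over all 15848 tested genes), and a gene was called at an adjusted p below 0.05. The SE of a fold change is the one implied by its F statistic. CPM values come from the same scaling, and TPM values deposited by the authors were used to compare genes per transcript length. Pairs of libraries of one group differed far beyond counting noise (chi-square per degree of freedom between 43.5 and 168), so none was merged. The test was also run on simulated counts with planted changes, which were larger than those of nearly all members. No support for the calls is drawn from that run.

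The members and gene lists were chosen with earlier results of these data known. Values in each library are given for members that were called, had an unadjusted p below 0.05, had the highest or lowest fold change or were among the 2 most abundant of their role, and for Tfeb. Of each other list, called genes or, if none, the 2 with the smallest p are named (1 such gene is not reported here), and Ctss, Ctsh, Vps11, Vps16 and the called genes near E4f1 were named after their values were seen. Alternatives were DESeq2 (version 1.42.0), limma (version 3.58.1), either voom or log2 TPM with a pseudocount of 1 or 0.1 (genes reaching TPM 1 in 3 libraries), RLE, upper-quartile and library-total scaling, no filter or CPM 1 in 3 libraries, non-robust estimation, a replicate block, a midbrain score (En1, En2 and Pax5 averaged as log2 CPM) as covariate, WT 1, WT 2, KO 1 and KO 2 alone (whose label numbers lie close together) and leaving out each library. A fit of WT 1, WT 3, KO 1 and KO 2 alone was added after seeing the data.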

Additional observations from a re-analysis of the deposited data

How the results depend on the processing

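Over 20 alternative fits, 672 fold changes of the 37 members other than Tfeb kept their sign and their side of the threshold, 19 gained a call, 16 lost one and 33 turned sign, none of these 33 in a called gene. Members called higher numbered 10 by DESeq2, 3 by limma on log2 TPM with either pseudocount, 4 with library totals, 2 with the CPM filter, and 0 in WT 1, WT 2, KO 1 and KO 2 alone or with the midbrain score. Members called lower numbered 3 by DESeq2, and 0 in WT 1, WT 2, KO 1 and KO 2 alone, in WT 1, WT 3, KO 1 and KO 2 alone and with the midbrain score. Leaving out 1 library gave between 0 and 1 called higher and 0 called lower, in fits of 5 libraries. The median of the pump subunits was -0.0383 in WT 1, WT 3, KO 1 and KO 2 alone and -0.0284 with the midbrain score, with which that of the hydrolases was 0.53. The cause of these shifts was not tested. Over all tested genes, 81 were called higher and 78 lower by edgeR, against 780 and 657 by DESeq2, 125 and 122 by limma on log2 TPM with a pseudocount of 1 (120 and 121 with 0.1), 123 and 63 with library totals, 22 and 40 in WT 1, WT 3, KO 1 and KO 2 alone, 0 and 0 in WT 1, WT 2, KO 1 and KO 2 alone or with the midbrain score, and 12 to 40 and 24 to 42 without 1 library.

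The signs that turned belonged to uncalled genes. By limma on log2 TPM with pseudocounts of 1 and 0.1, Ctsf had -4.73e-03 and -4.63e-03, Lamp1 -8.88e-03 and -8.92e-03, and Npc1 -0.0222 and -0.0230. In WT 1, WT 2, KO 1 and KO 2 alone, Ctsf had -0.0378, Ctsh -0.18, Lamp1 -0.0727 and Atp6v1a 8.34e-03. In WT 1, WT 3, KO 1 and KO 2 alone, Lamp1 had -6.90e-03, Atp6v1a 0.14 and Atp6v1b2 0.0381. With the midbrain score, Ctsa had 0.0146, Atp6v0b 0.0191, Atp6v1a 0.0261 and Atp6v1b2 0.10. With library totals, Ctsa had 0.0132, Atp6v1a 0.0504 and Atp6v1h 9.88e-03, and with upper-quartile factors Atp6v1a had 8.17e-03. Leaving out 1 library gave Ctsa between -0.156 and 4.38e-03, Ctsf between -0.0502 and 0.13, Lamp1 between -0.0411 and 0.0574, Npc1 between -0.0737 and 0.0822, Psap between -0.0140 and 0.149 and Atp6v1a between -0.0992 and 0.10.

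The labels do not say whether equal replicate numbers pair the brains. Deviations of same-numbered libraries from their group means correlated at 0.131, 0.174 and 1.21e-03 (numbers 1 to 3). Those of differently numbered libraries correlated between -0.235 and 0.104, and KO 3 correlated more with WT 1 (0.0188) than with WT 3. Each group has only 3 libraries, so these values cannot decide whether the numbers pair brains. With the replicate block, 24 genes were called higher and 42 lower, Ctsl had an adjusted p of 0.0421 and Atp6v0c of 0.0168, and 1 member was called in each direction. Vps33a, Cx3cr1 and Fcrls had 0.0513, 0.0502 and 0.0706 in that fit.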
